A study of Homo sapiens with 4 samples.

Results

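The genes described here encode the 3 lamins (LMNA, LMNB1 and LMNB2) and 7 proteins that hold the lamina at the inner nuclear membrane or link it to chromatin and the cytoskeleton (LBR, EMD, TMPO, LEMD3, BANF1, SUN1 and SUN2). They were chosen by name for their place in the nuclear lamina, by a rule that uses no measured value though earlier results of these data were known, and are 10 of the 63677 genes in the count files. All 10 passed the filter on low counts and are among the 15398 genes tested. Expression was measured by RNA-seq in IMR90, a line of human fetal lung fibroblasts, at passage 5. Cells were transfected with RNAiMAX and either a non-targeting control siRNA (NTC) or siRNA against the HMGB1 mRNA, and were treated for 72 h. Each group has 2 libraries, 1 of the isolate I90-10 (replicate 1) and 1 of I90-79 (replicate 2), and the control cells had gone through transfection as well. The study's methods name 2 siRNAs for these cells and do not say how they were divided over the libraries.

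The nuclear lamina is a meshwork of lamin filaments beneath the inner nuclear membrane. It carries the shape and stiffness of the nucleus and anchors heterochromatin, which it reaches through membrane proteins that bind lamins on one side and chromatin proteins on the other. Loss of LMNB1 mRNA and protein is among the most widely used markers of senescence in fibroblasts, and HMGB1, an abundant protein that bends DNA, leaves the nucleus in senescent cells. The question put to the counts was whether depleting HMGB1 is accompanied by the LMNB1 loss known from senescence, and how the other genes of the lamina fared.

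Libraries held 29861687 to 35317010 counted reads, and the 10 most abundant genes took 5.63% to 8.52% of them. HMGB1 was at 181 and 237 CPM (read counts relative to library size, scaled by TMM factors) in the controls and at 16.0 and 18.9 CPM after knockdown, 12.0-fold lower (log2-fold change −3.59, SE 0.19, adjusted p = 0.0075 by edgeR's quasi-likelihood test). All 8 fibroblast markers on the list were tested, with a summed level of 17966 to 34090 CPM across libraries. CDH5, KRT5, CD3E and LYZ, markers of endothelial, epithelial and immune cells, had 0 counts in all 4 libraries, and EPCAM was at 0.461 to 0.681 CPM. The endothelial marker VWF was at 1.36 and 0.923 CPM in the control and 4.16 and 2.59 CPM in the knockdown libraries (log2-fold change 1.57, adjusted p = 0.068). With the isolate as a block VWF was called higher, beside 6.68% of all genes tested. Of the fibroblast markers, 0 were called, beside 0.0649% of all genes called higher and 0.136% lower. The block called LUM higher (0.79 without the block), beside 6.68% of all genes. It called PDGFRB (−0.73) and THY1 (−0.95) lower, beside 7.84%. The part of these markers in the results below was not tested. The counts come from whole cultures, so fewer cells expressing a gene and less of its mRNA per cell cannot be told apart. With 2 libraries against 2, a two-sided exact permutation test cannot give a p below 0.333.

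A call needed a Benjamini-Hochberg adjusted p below 0.01 in edgeR's test and a log2-fold change of more than 0.6 in either direction. By this rule 1 of the 10 genes, LBR, fell upon HMGB1 knockdown and 0 rose, while 0.136% of all genes tested were called lower and 0.0649% higher. SUN1 had the next largest change, with an adjusted p of 0.0104 that missed the threshold. When the isolate entered the fit as a replicate block, LBR and SUN1 were both called lower, beside 7.84% of all genes tested, and 0 of the 10 were called higher, beside 6.68%. The remaining 8 genes had log2-fold changes from −0.23 to 0.39 and were called in neither fit. Across the 10 genes the median log2-fold change was 0.11, against −0.01 over all genes tested, with 6 values above 0 and 4 below. At an unadjusted p below 0.05, LBR and SUN1 passed as lower and 0 of the 10 as higher, beside 14.7% and 13.6% of all genes. At an adjusted p below 0.05 with no minimum size, these 2 genes were again the ones called lower, beside 4.50% of all genes.

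**Figure D1:**
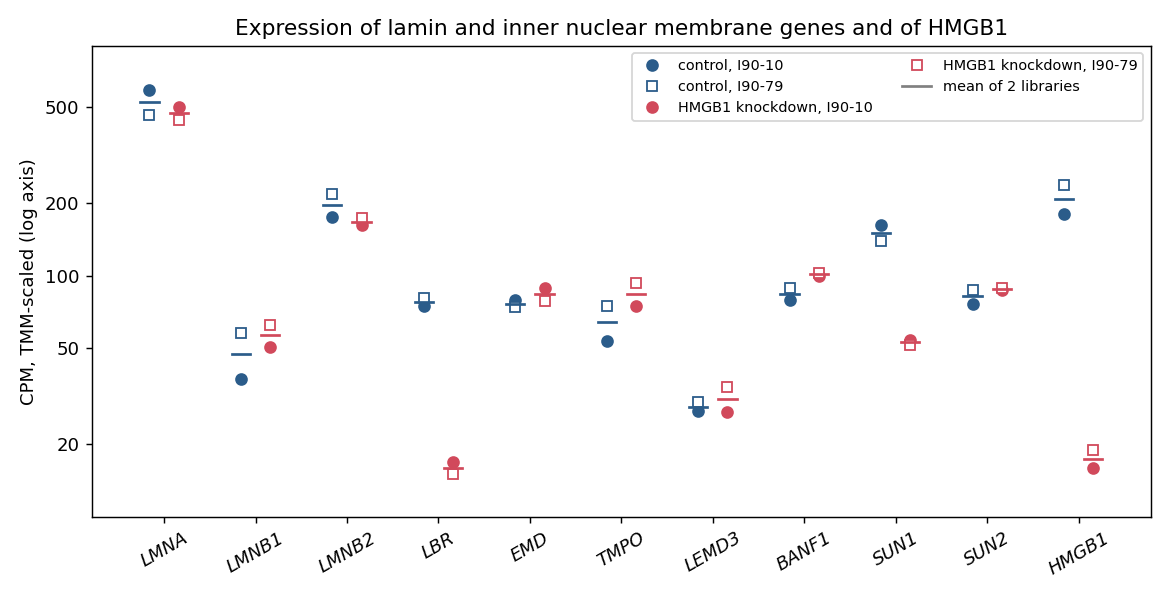
Expression of the 10 lamina genes and of HMGB1 in each library, in TMM-scaled CPM on a log axis, with control libraries in blue, knockdown libraries in red, filled circles for isolate I90-10, open squares for I90-79 and a line at the mean of 2 libraries. LBR, SUN1 and HMGB1 lie far below their controls in both isolates, whereas the 4 LMNB1 values overlap between the groups.

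The LMNB1 loss known from senescence was not detected at 72 h. LMNB1 (ENSG00000113368, chr5:126112315-126172712 on the plus strand of hg19) encodes lamin B1, the B-type lamin that stays tied to the membrane by its farnesyl tail. It was at 37.3 and 57.6 CPM in control replicates 1 and 2 (1097 and 2124 reads), a mean of 47.5 ± 14.3 (SD, n = 2), and at 50.8 and 62.3 CPM in the knockdown (1467 and 1947 reads), a mean of 56.6 ± 8.17 (SD, n = 2). The lowest of the 4 values was a control and the highest a knockdown library, and the groups overlapped. The log2-fold change was 0.25 (SE 0.24, adjusted p = 0.530 by edgeR's quasi-likelihood test), and its 95% interval reached from 0.787-fold to 1.80-fold of the control level. Within the isolates it was 0.44 in I90-10 and 0.11 in I90-79. With the isolate as a block the interval lay just above 0, from 0.01 to 0.54 on the log2 scale, with an adjusted p of 0.101. Without control replicate 1 the log2-fold change was −0.03. That fit sets the knockdown libraries of both isolates against the I90-79 control, while the I90-79 pair alone gave 0.11.

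The level of LMNB1 also varied between the isolates. On the log2 scale it was higher in I90-79 than in I90-10 by 0.63 in the control and by 0.30 in the knockdown libraries. The 5 genes whose log2 CPM followed that of LMNB1 most closely over the 4 libraries, by Euclidean distance after centring, were APIP (distance 0.0469), RACGAP1 (0.0479), CATSPER2 (0.0490, at 0.204 to 0.352 CPM), PCLAF (0.0566) and KDM8 (0.0570). RACGAP1 acts in cytokinesis and PCLAF binds the replication clamp PCNA. With 4 values per gene and 15398 genes tested, matches this close can arise by chance. Summed over 20 proliferation genes, expression was 1014 and 1792 CPM in the controls and 1235 and 1546 CPM after knockdown, so the lowest sum was in the same library as the lowest LMNB1 value, and the highest sum was in the control library of I90-79. Its part in the LMNB1 values was not tested.

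LMNA and LMNB2 were not called either. LMNA (chr1:156052364-156109880, plus strand) encodes lamins A and C, which form a network of their own in the lamina and also occur inside the nucleus. Control replicates 1 and 2 had 589 and 463 CPM and the knockdown replicates 504 and 445 CPM. The knockdown value of I90-10 lay between the controls, and the log2-fold change was −0.15 (SE 0.17, adjusted p = 0.610). LMNB2 (chr19:2427636-2456994, minus strand), the gene of lamin B2, was at 175 and 217 CPM in the control and 162 and 174 CPM in the knockdown libraries. Both knockdown values were below both controls, as for 30.2% of all genes tested, but the higher of them came close to the lower control. The log2-fold change was −0.23 (SE 0.15, adjusted p = 0.368), and 4.73% of the exonic bases of LMNB2 are shared with TIMM13 on the same strand.

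Compared per kb of exon, LMNA was the most abundant of all 10 mRNAs, at 75.3 ± 12.7 CPM per kb (SD, n = 2) in the control and 67.9 ± 5.99 in the knockdown libraries. The length used is that of all annotated exons of a gene joined, not of a single mRNA, and comparisons between genes depend on it. LMNB2 followed among the lamins at 36.1 ± 5.55 and 30.9 ± 1.54 CPM per kb, and LMNB1 was lowest at 13.1 ± 3.95 and 15.6 ± 2.25. LMNB1 made up 8.11% and 12.98% of the lamin mRNA in control replicates 1 and 2 and 12.1% and 15.2% in the knockdown replicates, with a difference of means of 3.10 percentage points (two-sided exact permutation p = 0.667). This difference was 0.662 points without control replicate 1, 1.52 without knockdown replicate 2, 4.67 without knockdown replicate 1 and 5.53 without control replicate 2. With the length of the canonical transcript in place of all exons, the 4 libraries gave 2.16 points. The share of LMNA was 66.5%, 54.3%, 62.2% and 56.5% in the same order, and that of LMNB2 was 25.4%, 32.8%, 25.7% and 28.3%. For each lamin, the shares of the groups overlapped, and the I90-79 library of each group held more LMNB1 and less LMNA than the I90-10 library.

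**Figure D2:**
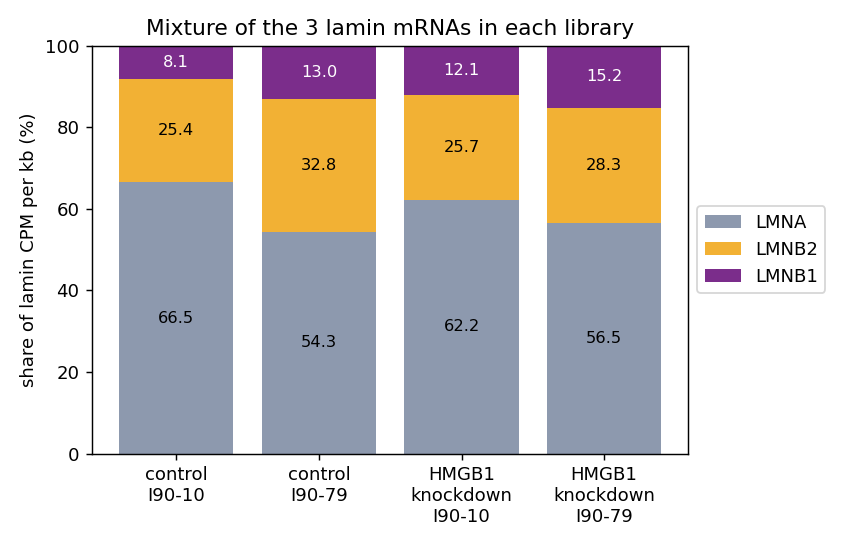
Share of each lamin in the summed CPM per kb of LMNA, LMNB1 and LMNB2, in percent, with 1 bar for each library. The LMNB1 share ran from 8.11% to 15.2% and was lowest in the control library of I90-10.

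LBR fell to 20.5% of its control level. The lamin B receptor (ENSG00000143815, chr1:225589204-225616627, minus strand) spans the inner nuclear membrane several times, binds B-type lamins and heterochromatin through its nuclear end, and reduces the C14 double bond of sterols through its membrane part. It is one of the main tethers of heterochromatin at the nuclear rim, and its level is also known to decline in senescent cells. LBR was at 74.7 and 81.1 CPM in the controls (2195 and 2989 reads), a mean of 77.9 ± 4.52 (SD, n = 2), and at 16.9 and 15.0 CPM in the knockdown libraries (488 and 470 reads), a mean of 16.0 ± 1.31 (SD, n = 2). All values of 1 group were close together, and the groups did not overlap. The change was 4.88-fold, with a log2-fold change of −2.29 (SE 0.13, 95% interval −2.61 to −1.96, adjusted p = 0.0075 by edgeR). It was −2.14 in I90-10 and −2.43 in I90-79. Of the 15398 genes tested, 93 (0.604%) had a lower log2-fold change. LBR was called in all 8 alternatives that used the 4 libraries, though the looser threshold re-used the main fit, so LBR had to pass it. Without knockdown replicate 1 or 2 its log2-fold change was −2.37 or −2.20 with an adjusted p of 0.049 or 0.036, and in these fits 0 of all genes were called.

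SUN1 was 2.86-fold lower after HMGB1 knockdown, just outside the threshold. SUN1 and SUN2 (chr7:855528-936072, plus strand, and chr22:39130730-39190148, minus strand) cross the inner membrane, bind lamins in the nucleus and meet the KASH domains of nesprins in the space between the membranes, which couples the nucleus to the cytoskeleton. SUN1 was at 163 and 139 CPM in the controls (4783 and 5133 reads), a mean of 151 ± 16.6 (SD, n = 2), and at 54.1 and 51.6 CPM in the knockdown libraries (1563 and 1613 reads), a mean of 52.9 ± 1.75 (SD, n = 2). The values of the groups stood well apart. The log2-fold change was −1.51 (SE 0.13, 95% interval −1.84 to −1.19, adjusted p = 0.0104 by edgeR), with −1.59 in I90-10 and −1.43 in I90-79. With the replicate block it was −1.51 with an adjusted p of 5.9e-05. In all, 387 of the genes tested (2.51%) had a lower log2-fold change. Of the exonic bases of SUN1, 15.5% are shared, nearly all with GET4 on the same strand, and 14.8% of its 50-base pieces also occur in transcripts of other genes, so the reads in those stretches cannot be assigned to SUN1 with certainty.

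SUN2, the paralog of SUN1, was not called. It was at 76.6 and 87.4 CPM in the control and 87.6 and 88.7 CPM in the knockdown libraries. Both knockdown values were above the controls, as for 29.8% of all genes tested, though by less than 1 CPM in the closest pair. The log2-fold change was 0.10 (SE 0.12, 95% interval −0.19 to 0.40, adjusted p = 0.605 by edgeR), an interval that does not meet that of SUN1. Per kb of exon, the control level of SUN1 (12.7 ± 1.40, SD, n = 2) was close to that of SUN2 (12.6 ± 1.17). In the knockdown SUN1 was at 4.44 ± 0.147 and SUN2 at 13.6 ± 0.116 CPM per kb. The closeness in the control libraries rests on the length of all annotated exons, 11908 bases for SUN1 and 6490 for SUN2. In CPM the control means were 151 for SUN1 and 82.0 for SUN2. For SUN2, 24.6% of the exonic bases overlap other genes, most of them on the opposite strand, and whether the counting used the strand is not given in the sources used here.

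The proteins with a LEM domain, a short fold that binds BANF1, were called in neither direction. Emerin, the product of EMD (chrX:153607557-153609883, plus strand), was at 79.0 and 74.0 CPM in the control and 89.0 and 78.6 CPM in the knockdown libraries, with overlapping groups and a log2-fold change of 0.13 (SE 0.12, adjusted p = 0.519). LEMD3, also called MAN1, which restrains SMAD signalling (chr12:65563351-65642107, plus strand), was at 27.4 and 29.8 CPM in the control and 27.2 and 34.4 CPM in the knockdown libraries. Its log2-fold change was 0.11 (SE 0.16, adjusted p = 0.702). It was the single gene of the 10 whose isolates differed in sign, though the value in I90-10 (−0.014) was hardly a change. TMPO (chr12:98909290-98944157, plus strand) encodes the LAP2 proteins, of which the alpha form binds lamins A and C inside the nucleus. Control levels were 53.6 and 74.7 CPM, and levels after knockdown were 75.0 and 93.4 CPM. The lower knockdown value only just exceeded the higher control, while each isolate on its own showed a higher level after knockdown (log2-fold change 0.49 and 0.32). The log2-fold change of TMPO was 0.39 (SE 0.20, adjusted p = 0.271), and with the isolate as a block 0.40 (adjusted p = 0.017), which was below the size needed for a call. As for LMNB1, TMPO was higher in I90-79 than in I90-10, by 0.48 in the control and 0.32 in the knockdown libraries on the log2 scale.

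BANF1 (chr11:65769550-65771620, plus strand), which encodes the small DNA-bridging protein BAF that gathers LEM proteins on chromatin as the nucleus reforms, was at 79.3 and 89.1 CPM in the control and 99.5 and 102.9 CPM in the knockdown libraries. All knockdown values exceeded the controls. The log2-fold change was 0.27 (SE 0.11, 95% interval −0.02 to 0.56, adjusted p = 0.205 by edgeR). Per kb, BANF1 was the second most abundant of the 10 mRNAs, at 51.2 ± 4.19 CPM per kb (SD, n = 2) in the control libraries, followed by EMD at 37.9 ± 1.74. EMD and LMNB2 did not differ beyond their spread in the control libraries, nor did any neighbours in the order LBR (14.8 ± 0.859), LMNB1, SUN1 and SUN2. TMPO (7.46 ± 1.74) and LEMD3 (5.14 ± 0.296) were lowest. In the knockdown libraries LBR (3.04 ± 0.248) and SUN1 were the 2 least abundant of the 10 per kb of annotated exon.

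**Figure D3:**
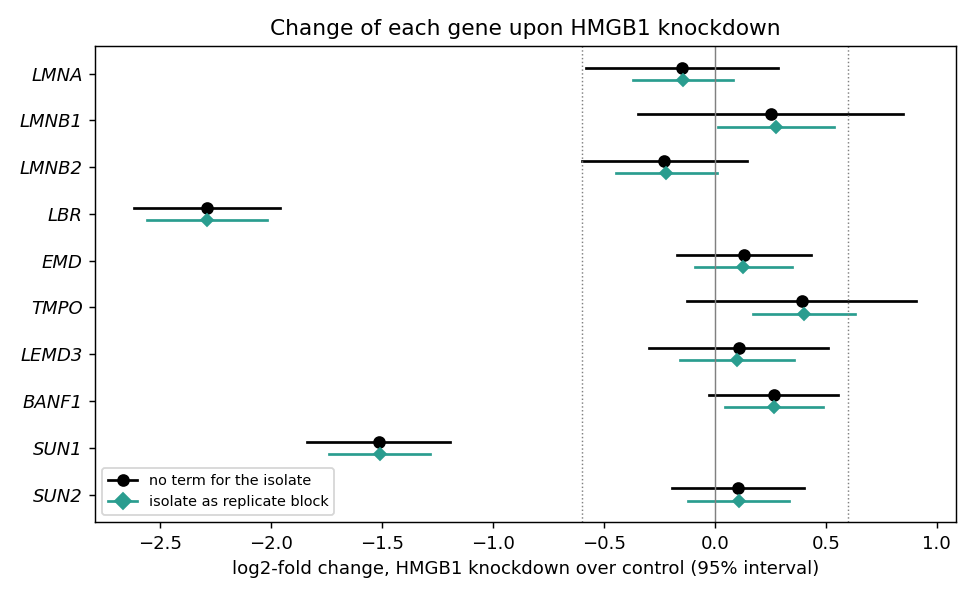
The log2-fold change of each gene upon HMGB1 knockdown with its 95% interval, without a term for the isolate (black circles) and with a block for the isolate (green diamonds), with dotted lines at the size needed for a call. The intervals of LBR and SUN1 lie wholly below −0.6 in both fits, while that of LMNB1 without the block spans −0.35 to 0.85.

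The 3′ UTRs of 4 of the 10 genes, LBR and SUN1 among them, hold a word that goes with lower values across all genes. Of all genes tested with a 3′ UTR of 100 bases or more, 36.2% hold it, a share near that of the 10. An earlier search of these same counts had found the 6-base word GCAGTT in the 3′ UTRs of genes that were lower upon knockdown, so the values below are a description and no independent support for that relation. The word was looked for on the mRNA strand in the 3′ UTR of the canonical GENCODE transcript of each gene, and each site is shown with 8 bases on either side and the word in capitals, because the word is what LBR, SUN1, LMNB2 and SUN2 have in common, while the flanking bases differ at every site. Coordinates are those of GRCh37 (hg19), and sequences read 5′ to 3′ along the mRNA.
LBR, chr1:225590428-225590449, minus strand: catttgtaGCAGTTggcttaac
LBR, chr1:225589927-225589948, minus strand: aagcttatGCAGTTtatactgt
LBR, chr1:225589452-225589473, minus strand: gtgtgcaaGCAGTTtttttatt
SUN1, chr7:914262-914283, plus strand: ggaactatGCAGTTaaggcaga
LMNB2, chr19:2430242-2430263, minus strand: gttttcccGCAGTTcagttcct
LMNB2, chr19:2428423-2428444, minus strand: tgcacgcgGCAGTTctttgtta
SUN2, chr22:39131207-39131228, minus strand: tctgtgggGCAGTTggtggggg

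The 3′ UTR of LBR (1801 bases) held 3 copies, that of LMNB2 (2745 bases) 2, and those of SUN1 (1603 bases) and SUN2 (1533 bases) 1 each. LMNA, LMNB1, EMD, TMPO, BANF1 and LEMD3 held 0. HMGB1, the target of the siRNA and not a lamina gene, also held the word, with 3 copies in a 3′ UTR of 4653 bases. The HMGB1 sites are left out of the list above. Whether the word in HMGB1 has a bearing on the values of LBR and SUN1 was not tested. A 3′ UTR of 100 bases or more was annotated for 12337 of the genes tested, and 36.2% of these held the word. Of the 1794 genes with a 3′ UTR between 0.8 and 1.2 times as long as that of LBR, 1.45% held 3 copies or more, and of 1777 genes within the same limits around SUN1, 35.2% held at least 1. Over the 12337 genes the median log2-fold change was 0.07 with 0 copies, −0.10 with 1, −0.22 with 2 and −0.32 with 3 or more. The median length of the 3′ UTR rose along the same order, from 886 to 2196, 3517 and 5444 bases. Among genes with a 3′ UTR of 0.8 to 1.2 times the length of that of LBR, SUN1, LMNB2 or SUN2, the median log2-fold change was −0.21, −0.20, −0.19 and −0.20 with the word and 0.05, 0.07, 0.06 and 0.07 without it. The 26 genes of a length like that of LBR with 3 copies or more had a median of −0.82, and 0 of them had a lower value than LBR. Without regard to length, LBR and SUN1 lay below the 5% point of genes with as many copies (−1.57 for 3 or more and −1.30 for 1). LMNB2 and SUN2 lay near or above the medians. Among genes of a like length with as many copies or more, 35 of 625 were lower than SUN1. The same tally was 214 of 335 for LMNB2 and 444 of 592 for SUN2. The sequences of the siRNAs are not given in the sources used here.

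**Figure D4:**
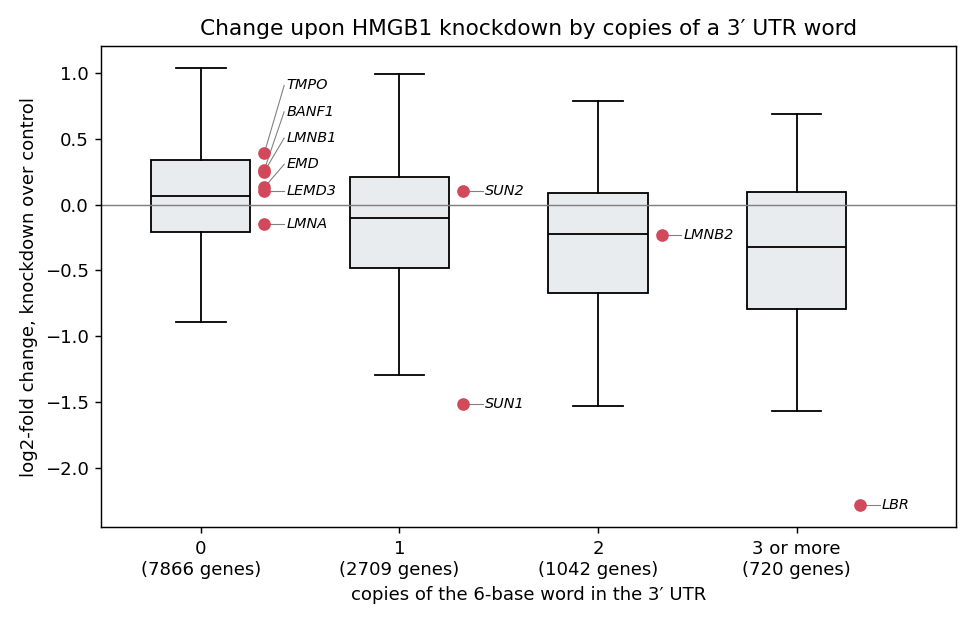
The log2-fold change upon HMGB1 knockdown by the number of copies of the 6-base word in the 3′ UTR. Boxes run from the 25% to the 75% point, with a line at the median and whiskers from the 5% to the 95% point. They cover the genes tested with a 3′ UTR of 100 bases or more, and red points are the 10 lamina genes. LBR with 3 copies and SUN1 with 1 copy lie below the whiskers, and SUN2, also with 1 copy, lies inside its box.

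Other genes of the nuclear envelope were called in neither direction without the block. Of 11 further genes of the inner membrane and the torsin system, 7 had a log2-fold change above 0 and 4 below, with a median of 0.25, against −0.01 over all genes tested. Leaving out control replicate 1 gave a median of 0.15, and leaving out control replicate 2 gave 0.37. PRR14, which tethers heterochromatin protein HP1 to the lamina, was at 29.5 and 32.9 CPM in the control and 14.0 and 16.0 CPM in the knockdown libraries. Its log2-fold change was −1.05 (SE 0.15, adjusted p = 0.022), and with the block it was called lower (adjusted p = 3.9e-04). The block thus called 1 of these 11 genes lower, beside 7.84% of all genes tested. LEMD2, a LEM protein that takes part in sealing the envelope, and TOR1A, a lumenal ATPase, had values of 0.51 (adjusted p = 0.055) and 0.52 (adjusted p = 0.060), and neither was called with the block.

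Nesprins, the outer membrane partners of the SUN proteins, include SYNE1 at 101 and 77.4 CPM in the control and 55.1 and 58.9 CPM in the knockdown libraries. Its log2-fold change was −0.64 (SE 0.16, adjusted p = 0.071), and with the block it was called lower (−0.63, adjusted p = 0.0074). SYNE2 and SYNE3 had log2-fold changes of −0.09 and −0.16 (adjusted p = 0.645 and 0.745), and SYNE4, with 1 to 6 reads in a library, was not tested. All 3 nesprin genes tested had values below 0, of which the block called 1 lower, beside 7.84% of all genes tested.

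The prelamin enzymes, which farnesylate, trim and methylate the tails of lamin A and the B-type lamins, were called in neither fit. ZMPSTE24, the protease that cuts prelamin A, was at 69.2 and 69.7 CPM in the control and 91.7 and 98.1 CPM in the knockdown libraries, with a log2-fold change of 0.45 (SE 0.11, adjusted p = 0.064). FNTA, FNTB, RCE1 and ICMT had log2-fold changes between −0.04 and 0.16. The 7 genes of envelope breakdown and reassembly had a median of −0.08 and 0 calls in either fit, and the sign of the median changed without control replicate 2 (0.07) and without knockdown replicate 1 (0.04). Among them were the phosphatase subunits CTDNEP1 (0.32, adjusted p = 0.115) and CNEP1R1 (−0.34, adjusted p = 0.213) and their substrate, the lipin LPIN1 (−0.24, adjusted p = 0.455).

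The sterol enzymes that act beside LBR were given as a list of 3. TM7SF2, the other sterol C14 reductase, was at 9.46 and 7.49 CPM in the control and 6.44 and 5.60 CPM in the knockdown libraries, with a log2-fold change of −0.49 (SE 0.22, adjusted p = 0.209). CYP51A1, which removes the methyl group at C14 one step earlier, was at 5.07 and 6.40 CPM in the control and 11.4 and 10.2 CPM in the knockdown libraries. Its log2-fold change was 0.91 (SE 0.21, adjusted p = 0.059), and with the block it was called higher (adjusted p = 0.0069), beside 6.68% of all genes tested. DHCR7, which makes cholesterol from its last precursor, had a log2-fold change of 0.28 (adjusted p = 0.337).

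Of 30 nucleoporin genes tested, 23 had a log2-fold change above 0 and 7 below, with a median of 0.17, and 0 were called without the block. The block called 4 higher and 0 lower, beside 6.68% and 7.84% of all genes tested. Without control replicate 1 the median was 0.11. NUP50, a mobile factor of nuclear import at the basket, had a log2-fold change of 0.67 (adjusted p = 0.035) and NUP58, of the central channel, 0.83 (adjusted p = 0.057), and both were called with the block. NUP93, a linker of the inner ring, had −0.60 (adjusted p = 0.041) and missed the call in both fits.

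**Figure D5:**
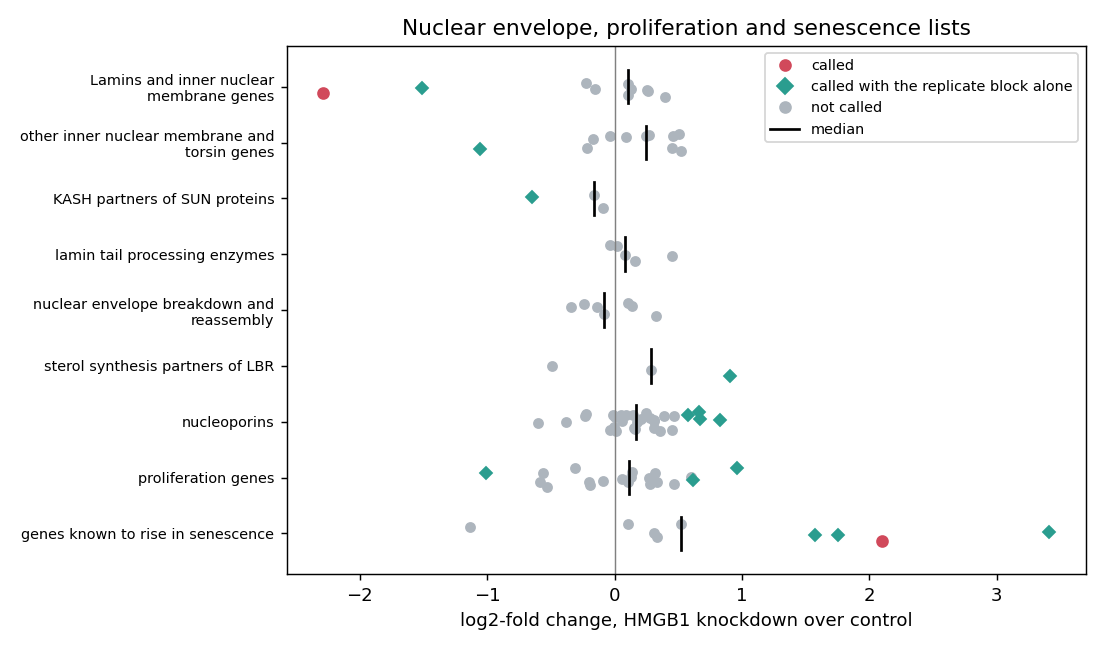
The log2-fold change of each gene tested in the lamina, envelope, proliferation and senescence lists, with the median of each list as a line, genes called in red, genes called with the replicate block alone as green diamonds and all others in grey. In the lists of the envelope, LBR is the single gene called without the block, and CDKN2B is the single gene called among those known to rise in senescence.

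The LMNB1 values stood beside a mixed picture of other genes tied to senescence. Of 9 genes known to rise in senescence, 8 had a log2-fold change above 0, with a median of 0.52, and 1 was called higher, beside 0.0649% of all genes tested. This was CDKN2B, the gene of the cell cycle inhibitor p15, at 34.8 and 38.4 CPM in the control and 153 and 161 CPM in the knockdown libraries (log2-fold change 2.10, SE 0.12, adjusted p = 0.0075). The block called 4 of the 9 higher, beside 6.68% of all genes tested, among them the stress cytokine GDF15 (1.75 without the block, adjusted p = 0.073) and the collagenase activator MMP3 (3.41, adjusted p = 0.178). The value below 0 was that of the cytokine gene IL6, named here after its values were seen, at 25.7 and 84.3 CPM in the control and 22.7 and 27.4 CPM in the knockdown libraries (−1.14, SE 0.54, adjusted p = 0.235). Without a filter on low counts, 1 gene of this list was called lower, beside 1275 of all genes. Of 20 proliferation genes, whose fall accompanies senescence, 12 had a log2-fold change above 0 and 8 below, with a median of 0.11, and 0 were called without the block. Their median was 0.42 in I90-10 and −0.18 in I90-79, and it was −0.28 without control replicate 1, −0.08 without knockdown replicate 2 and 0.65 without control replicate 2. With a reimplementation of RUVs with 1 factor followed by DESeq2, after the sequence of the study's methods, the median was −0.17. In that fit 4 genes of the list were called lower and 1 higher, beside 832 lower and 765 higher over all genes. The replication clamp PCNA was at 90.1 and 121 CPM in the control and 51.7 and 53.5 CPM in the knockdown libraries (−1.01, adjusted p = 0.032). It was called lower with the block, beside 7.84% of all genes tested. The helicase subunit MCM7 (0.96, adjusted p = 0.121) and the thymidylate synthase TYMS (0.62, adjusted p = 0.199) were called higher with the block, beside 6.68% of all genes tested.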

How the data were processed

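RNA-seq was done on 4 IMR90 libraries, 2 with the control siRNA and 2 with HMGB1 knockdown. The authors selected poly(A) RNA, aligned reads to hg19 by STAR, assigned them to genes by featureCounts, and deposited raw read counts for each library, without normalization. Versions and the strand setting are not given in the sources used here. Genes on patch contigs (5904) and mitochondrial genes (37) have 0 counts.

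Symbols were found for 55665 of 63677 genes and for 117 of 119 listed names. The test of the counts was run in R 4.3.3 with edgeR 4.0.16 and limma 3.58.1, using filterByExpr, TMM factors (0.968 to 1.04), the quasi-likelihood test and Benjamini-Hochberg adjustment over 15398 genes, without a term for the isolate, and the script was tested on simulated data. Values per kb used the exon length in the count files, which joins all annotated exons of a gene. Differences between replicates 2 and 1 correlated between the groups at 0.56 (log2 of CPM plus 0.5, across genes), and the labels name the same isolates, so the numbers pair the libraries. The labels do not say whether the isolates are separate donors, so p-values measure the spread between these samples. Exon overlaps came from the gene models in the count files, and 3′ UTRs and 50-base pieces from GENCODE 44 lifted to GRCh37. The alternatives were DESeq2 1.42.0, RUVs followed by DESeq2, DESeq2 size factors, library totals, other filters, the replicate block, other thresholds and leaving out each library. RUVs was reimplemented with 1 factor and not run from the RUVseq package, and the study's methods do not give a number of factors. All 10 genes are named, as are the 3 genes with the smallest p of each other list (all genes for lists of 5 or fewer), HMGB1, and the 5 genes nearest to LMNB1. Members and lists were chosen with earlier results of these data known.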

Additional observations from a re-analysis of the deposited data

Results flagged for a closer look

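LEMD3 had a log2-fold change of −0.014 in I90-10, hardly a change, and 0.21 in I90-79. The isolates thus differed in sign, with 1 library per group in each isolate. The difference between the isolates was not tested. With 2 libraries in each group, single libraries far from the rest could not be looked for.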

How the results depend on the processing

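LBR was called lower in all 8 alternatives that used the 4 libraries, at −2.33 to −2.28. Among these, an adjusted p below 0.05 re-used the main fit, so that call was fixed in advance. HMGB1 stayed between −3.77 and −3.38 when 1 library was left out. The number of lamina genes called lower, 1 as reported, was 2 with DESeq2, RUVs, library totals, no filter on low counts, the replicate block and an adjusted p below 0.05, and 0 to 2 with 1 library left out, where SUN1 was the second gene. Over all genes, 21 lower and 10 higher calls became 818 and 728 with DESeq2, 832 and 765 with RUVs, 98 and 31 with library totals, 1275 and 1118 without a filter, 1207 and 1028 with the replicate block, and 693 and 606 at an adjusted p below 0.05. They were 0 to 337 and 0 to 305 with 1 library left out, and 6 genes were called higher with at least 10 counts in every library. The pairing of the libraries by isolate changed no other call among the 10 genes. The sign changed for LMNA with RUVs (0.0027) and without control replicate 1, for LMNB1 without control replicate 1, and for LEMD3 with RUVs (−0.0094) and without knockdown replicate 2. With 1 library left out, the log2-fold changes were −0.31 to 0.032 for LMNA, −0.029 to 0.60 for LMNB1 and −0.070 to 0.26 for LEMD3. The causes of these changes were not tested. LMNB1 had log2-fold changes of 0.03 to 0.28 over the fits of all libraries, and a change smaller than its interval could not be detected with 2 libraries in each group. With 1 library left out, the list medians ran from −0.39 to −0.02 for the nesprins, from 0.06 to 0.48 for the sterol enzymes and from 0.11 to 0.25 for the nucleoporins.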
